A study of Mus musculus with 64 samples.

Results

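Benzo[a]pyrene (BaP) is a ligand of the aryl hydrocarbon receptor (AhR) and, once metabolised, a DNA-damaging agent. The question here was whether its exposure left a p53 response in activated bone marrow-derived macrophages (BMMs) of either Ahr genotype. Of 55487 genes counted, 10 widely used p53 targets were followed: Cdkn1a, Mdm2, Ccng1, Phlda3, Bax, Trp53inp1, Sesn2, Bbc3, Gdf15 and Zmat3. They were chosen by name as known p53 targets, with earlier results of these data known, and all 10 passed the filter on low counts.

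RNA was sequenced from 64 BMM cultures in 16 groups of 4. The Ahr+/+ cells came from C57BL/6JRj mice and the Ahr-/- cells from a purchased C57BL/6 knockout line backcrossed to them, the wild-type mice described as female and all animals 8 to 12 weeks old. Marrow of 4 mice per genotype was differentiated in medium conditioned by L929 fibroblasts. Cultures of each genotype were kept with 1 µM BaP, 10 µM indole-3-carbinol (I3C, a non-genotoxic dietary AhR ligand) or the 0.01% DMSO vehicle for 6 h. They were then activated with 10000000 heat-killed Salmonella Enteritidis per ml (hkSE) and harvested 3 h or 20 h later, and DMSO cultures without hkSE were kept for both times. No culture received BaP or I3C without hkSE, so every ligand effect below is an effect in activated cells.

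p53, encoded by Trp53, is a transcription factor that is made continuously and degraded through the ubiquitin ligase Mdm2. Kinases that sense DNA breaks and blocked replication forks release it from Mdm2, and it then raises the transcription of genes for cell cycle arrest, apoptosis and metabolic restraint, among them Mdm2 itself. BaP becomes genotoxic when cytochromes of the CYP1 family and epoxide hydrolase convert it to a diol epoxide that binds guanine. The CYP1 genes are themselves AhR targets, which ties the activation of BaP to the receptor.

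The promoter windows of the targets are shown because p53 acts by binding a paired motif, and a window of Cdkn1a holds a pair of exact half-site matches. Half-sites were exact matches to RRRCWWGYYY, with R for A or G, W for A or T and Y for C or T. RefSeq windows of 300 bases (250 before to 50 after a start, build GRCm38.p6) were at hand for 8 of the 10 genes, 12 windows in all, with none for Trp53inp1 and Zmat3. Of 32851 windows of the mouse genome, 8.36% held a p53 half-site and 0.0731% held a pair with at most 13 bases between its members. Among the windows of the p53 targets 4 of 12 held a half-site, those of Cdkn1a, Mdm2, Ccng1 and Bax, and 1 held a pair. In the lines that follow, capitals mark the half-sites, and the single half-sites were added after the search had been read.
Cdkn1a, chr17:29090901-29090942, + strand: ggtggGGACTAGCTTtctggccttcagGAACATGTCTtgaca
Mdm2, chr10:117710925-117710954, - strand: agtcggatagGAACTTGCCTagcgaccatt
Ccng1, chr11:40755452-40755481, - strand: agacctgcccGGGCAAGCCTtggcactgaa
Bax, chr7:45467080-45467109, - strand: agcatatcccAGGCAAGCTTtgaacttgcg

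The Cdkn1a pair begins 73 bases before the start of its window's transcript. The Mdm2, Ccng1 and Bax half-sites begin 186, 185 and 201 bases before theirs. In Cdkn1a the half-site GAACATGTCT is followed directly by tgacatgttc, which misses the pattern only at its first base and was not counted. The capitals thus mark exact matches, and which bases p53 binds there was not tested. The AhR core GCGTG was searched on both strands. It was in 32.4% of all windows and in 6 of the 12, among them windows of Bbc3, Mdm2, Ccng1 and Cdkn1a. For Cdkn1a the core was in a further window, chr17:29093519-29093818, which held no half-site. The Cdkn1a window with the pair held no core. These matches describe letters in a window and not occupied sites. The genes lie, on mm10, at chr17:29090976-29100727 (Cdkn1a), chr10:117688875-117710758 (Mdm2), chr11:40748552-40755311 (Ccng1), chr1:135766119-135769136 (Phlda3), chr7:45461697-45466898 (Bax), chr4:11156431-11174379 (Trp53inp1), chr4:132492032-132510501 (Sesn2), chr7:16308393-16318205 (Bbc3), chr8:70629393-70632456 (Gdf15) and chr3:32334792-32366014 (Zmat3). All are protein-coding, and reads were counted over their exons. Sesn2 and Bax each share part of their strand with a further annotated gene (Gm12981 and Gm45808), whose reads can have been left out of their counts as ambiguous.

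The libraries held 12152496 to 50644601 reads on genes, apart from replicate 4 of the unactivated Ahr+/+ cells at 20 h with 233047331. The lowest count of any of the 10 genes in any library was 13, for Phlda3. The macrophage markers Csf1r (1337 to 2593 CPM, reads scaled to a common library size) and Adgre1 (819 to 5068 CPM) were high in every library. Mertk, also a macrophage marker, was low in some (5.23 to 125 CPM), and Itgam, the next lowest of them, held 183 to 378 CPM. The 3 erythroid markers were at 0 throughout, and the summed T cell, B cell, NK cell and dendritic cell markers never passed 6.21 CPM, those of fibroblasts 7.88 CPM and those of neutrophils 61.7 CPM. CPM here were scaled by the trimmed mean of M values (TMM) unless stated. In a bulk culture, fewer cells of a type and less RNA per cell cannot be told apart.

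Exposure itself was readable from Ahrr, the AhR repressor gene and a direct receptor target. In activated Ahr+/+ cells at 20 h it stood at 5.84, 6.16, 5.94 and 4.58 CPM with DMSO and at 17.2, 17.9, 20.7 and 18.9 CPM with BaP. The BaP libraries lay above all DMSO libraries, a log2 difference of 1.73 ± 0.18 (SE) with an adjusted p of 4.22e-09, and at 3 h the difference was 3.36 ± 0.26 (adjusted p = 7.13e-14). I3C cultures held 14.4 to 17.1 CPM at 20 h. In Ahr-/- cells at 20 h Ahrr was at 0.626 to 0.81 CPM with DMSO and 0.656 to 1.18 CPM with BaP, a difference of 0.31 ± 0.23 (adjusted p = 1). Nqo1, a quinone reductase, differed by 0.75 ± 0.26 at 20 h in Ahr+/+ cells (adjusted p = 0.196) and Tiparp, an ADP-ribosyltransferase that feeds back on AhR, by 0.64 ± 0.26 (adjusted p = 0.338). Both passed once the replicate number was held as a block within genotype, with adjusted p of 0.00434 and 0.000278. Cyp1b1, which codes for a BaP-activating cytochrome, never passed 1.14 CPM in any library, and Cyp1a1 was at or near 0. In activated Ahr+/+ cells at 20 h Cyp1b1 was at 0 to 0.0943 CPM with DMSO. It was at 0.121 to 1.14 CPM with BaP and 0.166 to 0.512 CPM with I3C, higher but near the floor. In Ahr-/- cells with BaP at 20 h it was at 0 to 0.114 CPM. Reads on Ahr were higher in the libraries labelled Ahr-/- (21.3 to 28.1 CPM with hkSE and DMSO at 20 h) than in Ahr+/+ (11.9 to 14.9 CPM). The gene count does not separate the deleted part, so Ahr checked nothing about the labels, whereas Ahrr separated the genotypes.

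**Figure D1:**
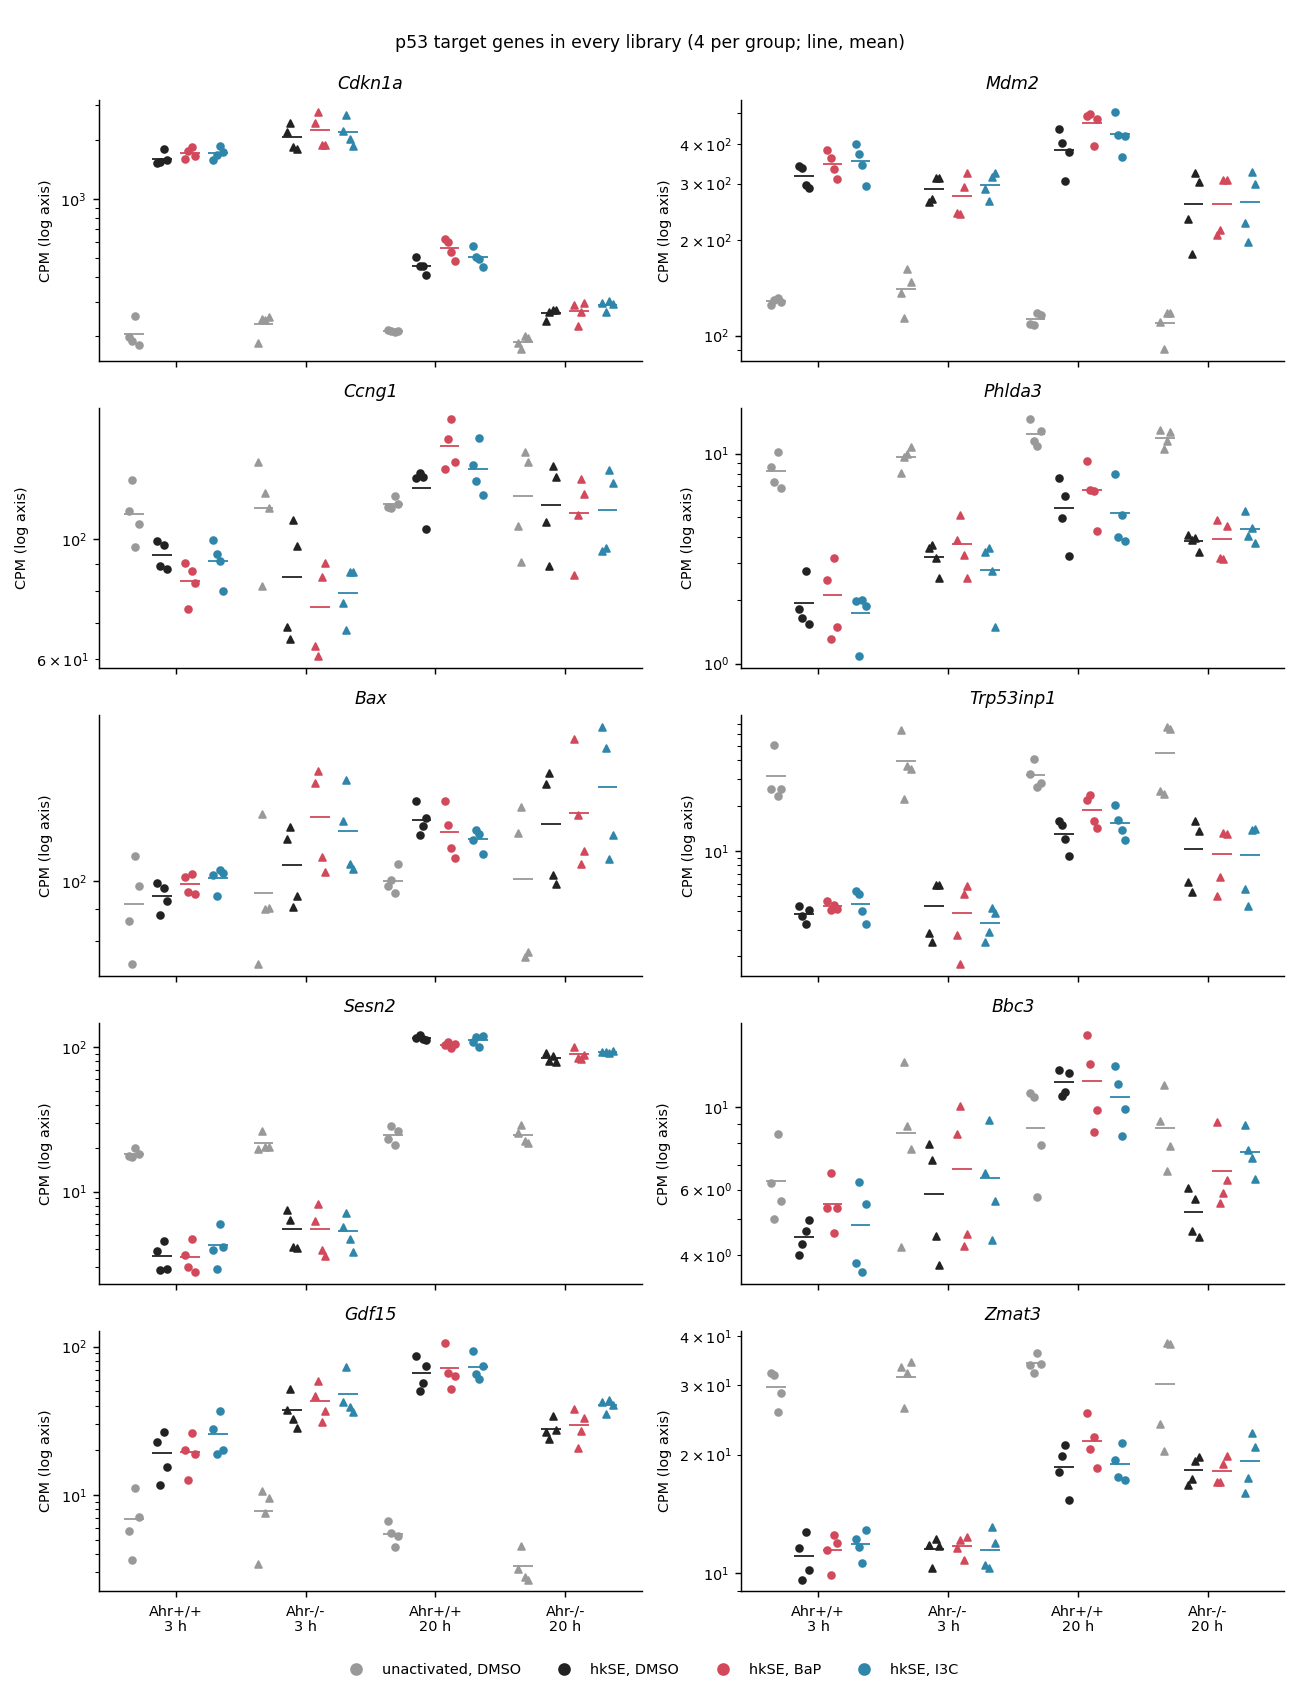
CPM of the 10 p53 targets in every library, on log axes, with Ahr+/+ as circles and Ahr-/- as triangles, unactivated DMSO in grey, hkSE with DMSO in black, with BaP in red and with I3C in blue, and a line at each mean of 4. The colours within an activated genotype and time lie close together, while activation and time move most genes, Sesn2 from 3.56 CPM at 3 h to 116 CPM at 20 h in activated Ahr+/+ DMSO cells.

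With BaP, none of the 10 p53 targets passed the threshold (adjusted p below 0.01) in the main fit, in either genotype at either time. The background was small too in this fit, which holds no replicate block. In Ahr+/+ cells 34 of 14537 genes passed at 20 h (0.234%) and 7 at 3 h (0.0482%). In Ahr-/- cells 2 passed at 20 h (0.0138%) and 4 at 3 h (0.0275%). The small background depended on the fit. With the replicate number as a block within genotype, 271 genes (1.86%) passed at 20 h in Ahr+/+ cells. With a block within genotype and time 619 (4.26%) passed there, Mdm2 among them. The paper's own list of genes changed by BaP at the later time is also far longer than that of the main fit. At an unadjusted p below 0.05, Cdkn1a at 20 h in Ahr+/+ cells was the single one of the 40 member tests to pass, where 1510 genes (10.4%) passed, against 390 (2.68%) at 3 h and 862 (5.93%) and 258 (1.77%) in Ahr-/- cells at 3 h and 20 h. DESeq2 on the same 64 libraries also called none of the 10, and for Ahr+/+ at 20 h it called 90 genes in all (0.686%).

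Cdkn1a encodes p21, the inhibitor of cyclin-dependent kinases and the most used transcript readout of p53. In activated Ahr+/+ cells at 20 h, replicates 1 to 4 held 507, 457, 455 and 409 CPM with DMSO and 622, 601, 537 and 480 CPM with BaP. Each BaP library was above the DMSO library of its number, while the groups overlapped. The log2 difference was 0.29 ± 0.11 (SE; 95% interval 0.07 to 0.52; 1.23-fold), with an adjusted p of 0.283. The Ahr-/- DMSO libraries held 240, 266, 272 and 271 CPM and the BaP libraries 288, 224, 266 and 296 CPM. These overlapped fully, with a difference of 0.03 ± 0.11 (interval -0.19 to 0.26).

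Mdm2, the ligase that degrades p53, stood at 445, 402, 305 and 376 CPM with DMSO and 491, 497, 394 and 478 CPM with BaP in Ahr+/+ cells at 20 h. Again all 4 numbered pairs were higher with BaP and the groups overlapped (0.28 ± 0.14, interval -0.01 to 0.57, adjusted p = 0.497). Mdm2 was the gene whose call depended on the design. With the replicate number as a block within genotype its adjusted p was 0.0344, with 271 genes called (1.86%), and with a block within genotype and time it was 0.00942, with 619 genes called (4.26%). In that last fit Mdm2 was the 1 target called, and Cdkn1a had an adjusted p of 0.0157. Ahr-/- cells held 232, 180, 323 and 303 CPM of Mdm2 with DMSO and 207, 215, 307 and 307 CPM with BaP, a difference of -0.00 ± 0.14. There, replicates 3 and 4 were above replicates 1 and 2 with either treatment.

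Ccng1, coding for cyclin G1, was the only target whose BaP libraries all lay above its DMSO libraries at 20 h in Ahr+/+ cells, an ordering that 4.03% of all genes showed. It held 130, 132, 130 and 104 CPM with DMSO and 135, 154, 167 and 139 CPM with BaP (0.26 ± 0.15, adjusted p = 0.592). The DMSO library of replicate 4 stood apart from the other 3. At 3 h the Ccng1 difference had the opposite sign (-0.16 ± 0.16 in Ahr+/+ and -0.18 ± 0.15 in Ahr-/-), and neither passed.

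Trp53inp1, a stress-induced nuclear protein that promotes p53 activity, had the largest estimate and the widest interval. Its Ahr+/+ libraries at 20 h held 15.9, 14.8, 12 and 9.24 CPM with DMSO and 21.7, 23.4, 15.8 and 14.1 CPM with BaP. The BaP library was the higher one in all 4 numbered pairs, yet the groups overlapped, and the difference of 0.53 ± 0.36 (interval -0.18 to 1.25, adjusted p = 0.654) was not distinguishable from 0. Phlda3, an inhibitor of Akt recruitment to membranes, held 7.64, 4.93, 6.29 and 3.26 CPM with DMSO and 9.25, 6.72, 6.63 and 4.29 CPM with BaP (0.29 ± 0.23). Zmat3, an RNA-binding zinc finger protein, held 18.0, 19.8, 21.2 and 15.3 CPM against 25.4, 20.7, 22.1 and 18.4 CPM (0.22 ± 0.13). Both were higher with BaP in 4 of 4 pairs, with overlapping groups and adjusted p of 0.731 and 0.582.

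Bax, Bbc3 and Gdf15 overlapped between DMSO and BaP, and Sesn2 lay lower with BaP but was not called. Bax, which codes for a pore-forming BCL2 family protein, held 135, 119, 123 and 127 CPM with DMSO and 135, 124, 114 and 109 CPM with BaP in Ahr+/+ cells at 20 h, and the values intermingled (-0.07 ± 0.16). Bbc3, coding for the BH3-only protein PUMA, held 12.5, 10.7, 10.9 and 12.3 CPM against 15.6, 13, 8.54 and 9.80 CPM (0.01 ± 0.25). The BaP libraries of Bbc3 spread on both sides of the DMSO libraries. Gdf15, which codes for a secreted stress cytokine of the TGF-beta family, held 85.8, 50.2, 56.8 and 74.2 CPM against 107, 66.3, 51.7 and 63.7 CPM (0.11 ± 0.27). Sesn2, coding for sestrin 2, which restrains mTORC1, was at 117, 122, 114 and 113 CPM with DMSO and 104, 109, 98.8 and 106 CPM with BaP. All 4 of its BaP libraries lay below all 4 DMSO libraries, an ordering that 5.01% of genes showed, and the difference of -0.15 ± 0.15 had an adjusted p of 0.792.

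Counted over the list, 8 of the 10 estimates were positive in Ahr+/+ cells at 20 h, where 49.9% of all genes were, and their median was 0.24 log2 units against 0 for all genes. Cdkn1a, Mdm2, Ccng1, Phlda3, Trp53inp1 and Zmat3 were higher with BaP in 4 of 4 numbered pairs, as 13.7% of all genes were. At 3 h the median was 0.08 in Ahr+/+ and 0.07 in Ahr-/- cells, and at 20 h in Ahr-/- cells 0.03. In Ahr-/- cells at 20 h the estimates ran from -0.11 ± 0.36 (Trp53inp1) to 0.37 ± 0.26 (Bbc3), with an adjusted p of 1 for each gene. At 3 h they ran from -0.16 ± 0.16 (Ccng1) to 0.28 ± 0.29 (Bbc3) in Ahr+/+ cells and from -0.18 ± 0.15 (Ccng1) to 0.26 ± 0.16 (Bax) in Ahr-/- cells. The intervals bound what could have been missed: for Cdkn1a their upper ends were 0.52 in Ahr+/+ and 0.26 in Ahr-/- cells at 20 h, and 0.32 and 0.35 at 3 h, on the log2 scale.

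**Figure D2:**
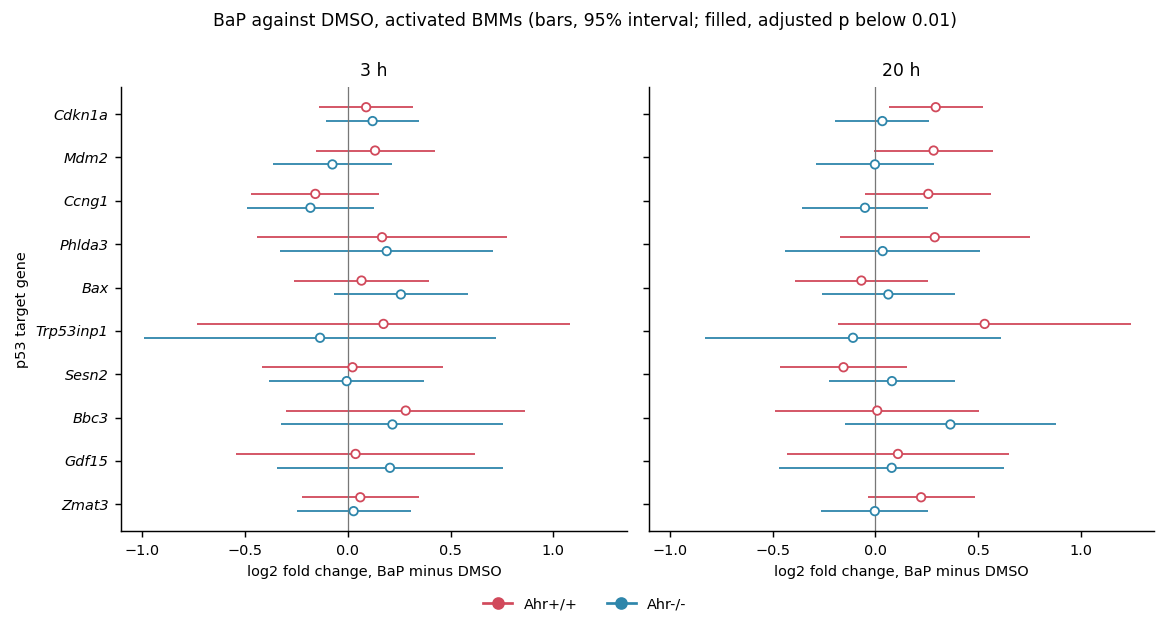
Log2 fold change of each p53 target with BaP against DMSO in activated BMMs at 3 h (left) and 20 h (right), Ahr+/+ in red and Ahr-/- in blue, with 95% intervals. No point is filled, since no gene had an adjusted p below 0.01, and of the 40 intervals that of Cdkn1a in Ahr+/+ cells at 20 h (0.07 to 0.52) alone leaves out 0.

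Whether BaP acted differently in the 2 genotypes was tested as the difference of the differences. None of the 10 passed at 3 h or at 20 h, against 2 (0.0138%) and 0 genes in all, where 679 genes had an unadjusted p below 0.05 at 20 h and DESeq2 called 15. At 20 h the estimates, Ahr+/+ minus Ahr-/-, were 0.26 ± 0.16 for Cdkn1a (interval -0.06 to 0.58), 0.29 ± 0.20 for Mdm2, 0.31 ± 0.22 for Ccng1 and 0.64 ± 0.51 for Trp53inp1 (interval -0.37 to 1.65). The adjusted p was 0.984 for each of these genes. With the block within genotype, 26 genes (0.179%) passed at 20 h and the 10 targets did not (lowest adjusted p 0.366, Mdm2). The higher estimates in Ahr+/+ cells are therefore not shown to differ from those in Ahr-/- cells.

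**Figure D3:**
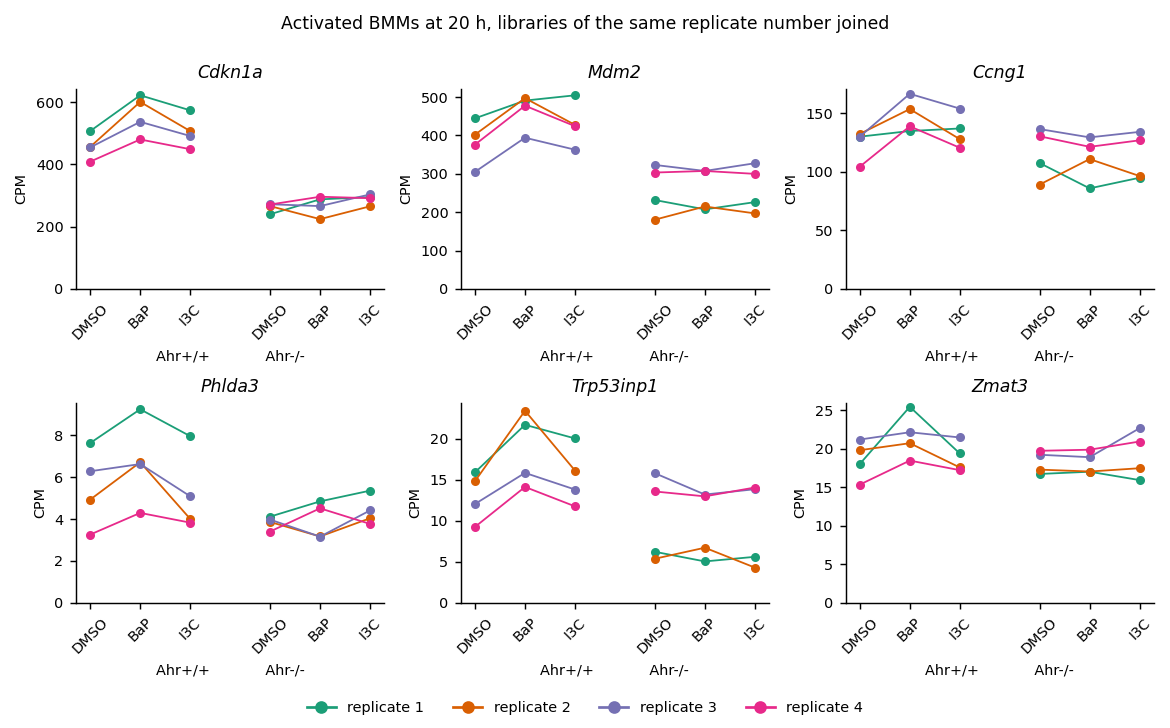
CPM of the 6 p53 targets that were higher with BaP in all 4 numbered pairs of activated Ahr+/+ cells at 20 h, with DMSO, BaP and I3C libraries of the same replicate number joined by a line and Ahr-/- cells on the right of each panel. The lines rise from DMSO to BaP in Ahr+/+ cells (Cdkn1a 507 to 622 CPM in replicate 1) because the genes were chosen by that rise. No such choice was made in Ahr-/- cells, so the panels do not compare the genotypes. In Ahr-/- cells the lines have no common direction, and replicates 3 and 4 run above 1 and 2 for Mdm2 and Trp53inp1.

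I3C served as an AhR ligand without the genotoxic metabolite, at 10 µM where BaP was at 1 µM, so their values stand side by side at unequal doses. None of the 10 genes passed with I3C in any of the 4 settings, where 0.131% and 0.509% of all genes passed in Ahr+/+ cells at 3 h and 20 h and 0.0206% and 0.206% in Ahr-/- cells. At an unadjusted p below 0.05, 1 of the 10 genes (Bbc3) and 672 of all genes passed in Ahr-/- cells at 20 h, and none of the 10 passed in the other 3 settings (744, 860 and 831 genes). In Ahr+/+ cells at 20 h Cdkn1a held 574, 507, 492 and 449 CPM with I3C, between DMSO and BaP in each replicate (0.15 ± 0.11 against DMSO). Mdm2 held 505, 428, 363 and 424 CPM (0.17 ± 0.14) and Trp53inp1 20.0, 16.1, 13.8 and 11.7 CPM (0.25 ± 0.36), both also above DMSO in 4 of 4 pairs, as were 11.8% of all genes. In Ahr-/- cells at 20 h the I3C libraries of Bbc3, Gdf15 and Sesn2 lay above all DMSO libraries, as 1.91% of all genes did, with 0.54 ± 0.26, 0.53 ± 0.27 and 0.14 ± 0.15 and an adjusted p of 0.999 each.

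BaP and I3C cultures did not differ for any of the 10 genes at the threshold in the 4 direct comparisons, in which 0.110%, 0.0206%, 0.282% and 0.186% of genes passed (Ahr+/+ and Ahr-/- at 3 h, then at 20 h). In Ahr+/+ cells at 20 h Cdkn1a was 0.15 ± 0.11 higher with BaP (interval -0.08 to 0.38), Mdm2 0.11 ± 0.14, Trp53inp1 0.28 ± 0.36 and Phlda3 0.36 ± 0.23 (interval -0.10 to 0.83), all with an adjusted p of 1. A BaP response of Cdkn1a beyond that of I3C of up to 0.38 log2 units was within this interval.

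Further p53 targets were read in the same fit. Of 40 listed, 35 passed the count filter, 0 were called with BaP in Ahr+/+ cells at 20 h, 22 had a positive estimate and the median was 0.03. Pmaip1, which codes for the BH3-only protein NOXA, had the smallest p (0.59 ± 0.19, adjusted p = 0.164), followed by the death receptor gene Fas (0.27 ± 0.10, adjusted p = 0.222) and the growth arrest gene Gadd45a, whose estimate was negative (-0.50 ± 0.18, adjusted p = 0.243). Under the block within genotype these had adjusted p of 0.033, 0.0357 and 0.052. Of p53 and its regulators 13 of 15 were tested and 0 were called, with Trp53 itself at -0.18 ± 0.14, the kinase gene Hipk2 at 0.26 ± 0.14 and Mdm4, a p53 inhibitor gene, at 0.20 ± 0.17. All 25 genes of nucleotide excision repair and bypass synthesis, the pathways that remove or pass bulky adducts, were tested and 0 were called, with a median of 0.01. Ddb1, a damage recognition subunit, was at -0.19 ± 0.06 (adjusted p = 0.123) and Pcna, the replication clamp gene, at 0.26 ± 0.10 (adjusted p = 0.282).

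Of 24 cell cycle genes that p21 is known to lower through the DREAM repressor complex 0 were called, 9 had a positive estimate and the median was -0.10, with Mcm3 at -0.27, Mcm5 at -0.30 and Mki67 at 0.34. Of 12 genes of the amino acid and unfolded protein stress response run by ATF4 and CHOP, which is also known to raise Sesn2 and Gdf15, 0 were called and 3 were positive, with a median of -0.16. Phgdh, which starts serine synthesis, was at -0.50 ± 0.16 (adjusted p = 0.138, and 0.00936 with the block). Atf3 was at 0.29 ± 0.09 (adjusted p = 0.125) and Psat1 at -0.39 ± 0.13 (adjusted p = 0.18). AhR targets and BaP-metabolising enzymes were the exception, with 9 of 13 tested, Ahrr called and a median of 0.37. With the block, 4 were called, Ahrr, Nqo1, Tiparp and the glucuronosyltransferase gene Ugt1a7c (0.45 ± 0.11, adjusted p = 0.0234 without the block). In Ahr-/- cells at 20 h 0 genes of any of these lists were called with BaP.

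**Figure D4:**
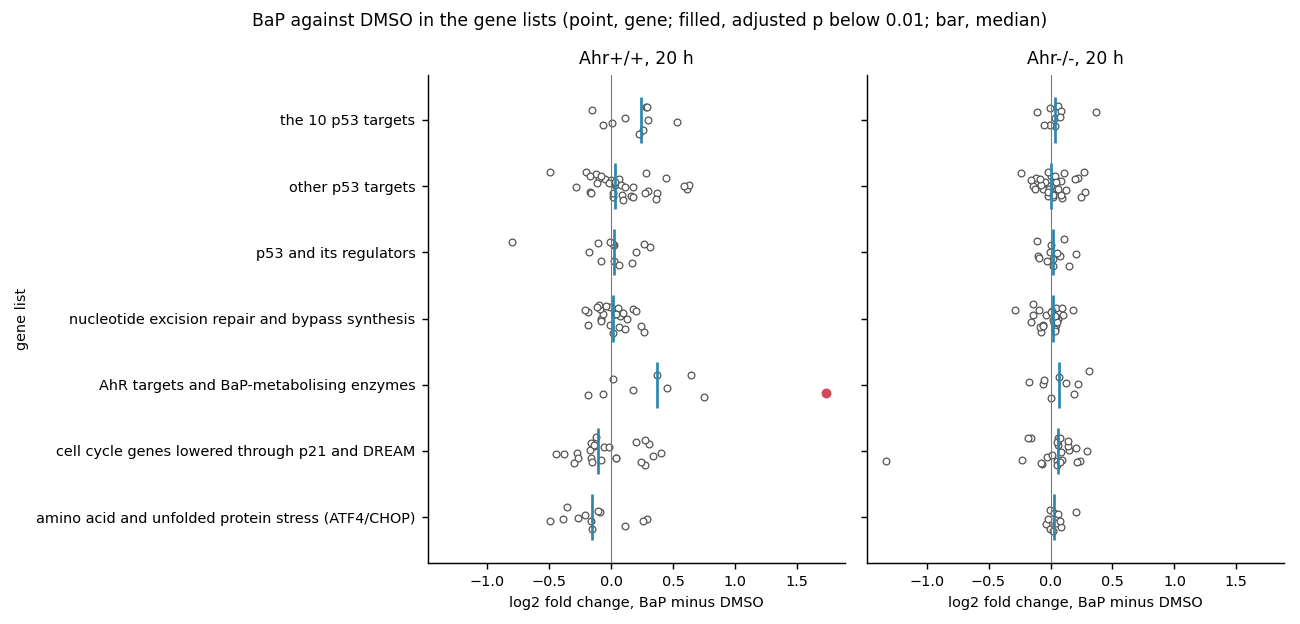
Log2 fold change with BaP against DMSO at 20 h of every tested gene of the 10 p53 targets and of 6 further lists, Ahr+/+ on the left and Ahr-/- on the right, with a blue bar at each list's median. The filled point is Ahrr (1.73) in Ahr+/+ cells, and the median of the 10 targets is 0.24 in Ahr+/+ and 0.03 in Ahr-/- cells.

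Activation moved most of the same genes, and in both directions. With hkSE against unactivated DMSO cells, 7 of the 10 targets were called in each genotype at each time, where 56.6% (Ahr+/+, 3 h), 57.3% (Ahr-/-, 3 h), 58.6% (Ahr+/+, 20 h) and 54.3% (Ahr-/-, 20 h) of all genes were called. Cdkn1a, Mdm2 and Gdf15 rose in all 4 settings, Phlda3, Trp53inp1 and Zmat3 fell in all 4, and Sesn2 fell at 3 h and rose at 20 h. Of these 28 calls, 5 depended on the fit. Without scaling factors the calls of Cdkn1a in Ahr-/- cells at 20 h (0.17 ± 0.12, adjusted p = 0.187), Mdm2 in Ahr-/- cells at 3 h (0.38 ± 0.14, 0.0158) and Gdf15 in Ahr+/+ cells at 3 h (0.83 ± 0.30, 0.0122) were lost. That of Trp53inp1 in Ahr+/+ cells at 20 h was lost with the numbering series of the library identifiers as a covariate (-0.96 ± 0.38, 0.0233). That of Zmat3 in Ahr-/- cells at 20 h was lost with edgeR on the compared groups alone (-0.77 ± 0.21, 0.0122) and with replicates 1 and 2 alone standing for Ahr-/- (-0.40 ± 0.15, 0.0172).

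Cdkn1a in Ahr+/+ cells went from 198, 190, 253 and 181 CPM unactivated to 1515, 1537, 1800 and 1569 CPM at 3 h, with no overlap (2.97 ± 0.12, 7.82-fold, adjusted p = 1.51e-28). At 20 h it was at 215, 212, 209 and 212 CPM unactivated against 507, 457, 455 and 409 CPM (1.11 ± 0.12). The changes in Ahr-/- cells were 3.16 ± 0.12 at 3 h and 0.48 ± 0.11 at 20 h. Mdm2 rose by 1.3 ± 0.15 at 3 h and 1.76 ± 0.15 at 20 h in Ahr+/+ cells and by 1.05 ± 0.15 and 1.25 ± 0.15 in Ahr-/- cells. Gdf15 rose from 6.66, 5.50, 4.44 and 5.32 CPM to 85.8, 50.2, 56.8 and 74.2 CPM at 20 h in Ahr+/+ cells (3.61 ± 0.31, 12.2-fold), and by 1.49 ± 0.30 at 3 h. Gdf15 in Ahr-/- cells rose by 2.28 ± 0.30 and 3.14 ± 0.31.

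Sesn2 in Ahr+/+ cells was at 17.7, 17.3, 20.2 and 18.2 CPM unactivated and at 3.87, 2.88, 4.57 and 2.91 CPM with hkSE at 3 h (-2.37 ± 0.19), with no overlap. At 20 h it was at 23.3, 28.6, 20.9 and 26.3 CPM unactivated and at 117, 122, 114 and 113 CPM with hkSE (2.23 ± 0.16). The same turn was measured in Ahr-/- cells (-1.98 ± 0.18 at 3 h and 1.78 ± 0.16 at 20 h). The falls were deepest for Trp53inp1, from 25.7, 50.8, 23.1 and 25.8 CPM to 4.29, 3.68, 3.25 and 4.07 CPM at 3 h in Ahr+/+ cells (-3.04 ± 0.41), and smaller at 20 h (-1.31 ± 0.36). It fell by 3.19 ± 0.40 and 2.14 ± 0.36 on the log2 scale in Ahr-/- cells. Phlda3 changed by -2.09 ± 0.27 and -1.18 ± 0.23 and Zmat3 by -1.43 ± 0.14 and -0.88 ± 0.13 at 3 h and 20 h in Ahr+/+ cells, and both fell in Ahr-/- cells (Phlda3 -1.56 and -1.64, Zmat3 -1.46 and -0.74).

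Ccng1, Bax and Bbc3 were not called in any of the 4 settings in the main fit. Ccng1 was at -0.25 ± 0.15 and 0.09 ± 0.15 at 3 h and 20 h in Ahr+/+ cells and at -0.43 ± 0.15 (adjusted p = 0.0128) and -0.05 ± 0.15 in Ahr-/- cells. Bax was at 0.04 ± 0.16 and 0.33 ± 0.16 in Ahr+/+ and 0.15 ± 0.16 and 0.30 ± 0.16 in Ahr-/- cells. Bbc3 was at -0.49 ± 0.28 and 0.41 ± 0.25 in Ahr+/+ and -0.54 ± 0.26 and -0.74 ± 0.26 (adjusted p = 0.0103) in Ahr-/- cells. With the replicate block within genotype, under which 63.3% (Ahr-/-, 3 h), 66.0% (Ahr+/+, 20 h) and 62.0% (Ahr-/-, 20 h) of genes passed, Ccng1 was called lower in Ahr-/- cells at 3 h (adjusted p = 5.52e-05), Bax higher at 20 h in Ahr+/+ (0.0031) and Ahr-/- cells (0.00524), and Bbc3 lower in Ahr-/- cells at 20 h (0.00294). The sign for Bax depended on the scaling. Without TMM factors the median of all genes moved from -0.10 to -0.78 at 3 h in Ahr+/+ cells and from -0.08 to -0.75 in Ahr-/- cells, and Bax was then at -0.63 ± 0.16 (adjusted p = 0.000495) and -0.51 ± 0.16 (0.00378), above the shifted median in both. At 20 h that median moved to -0.37 and -0.28, and Bax in Ahr+/+ cells was at -0.04 ± 0.16. Without TMM factors Ccng1 was also called lower at 3 h in Ahr+/+ (-0.92 ± 0.16, adjusted p = 7.47e-07) and Ahr-/- cells (-1.10 ± 0.16, 1.51e-08). Bbc3 was then called lower at 3 h in Ahr+/+ (-1.16 ± 0.28, 0.000164) and Ahr-/- cells (-1.20 ± 0.26, 5.09e-05), and at 20 h in Ahr-/- cells (-1.05 ± 0.26, 0.000336). The share of all genes called in that fit is not given.

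**Figure D5:**
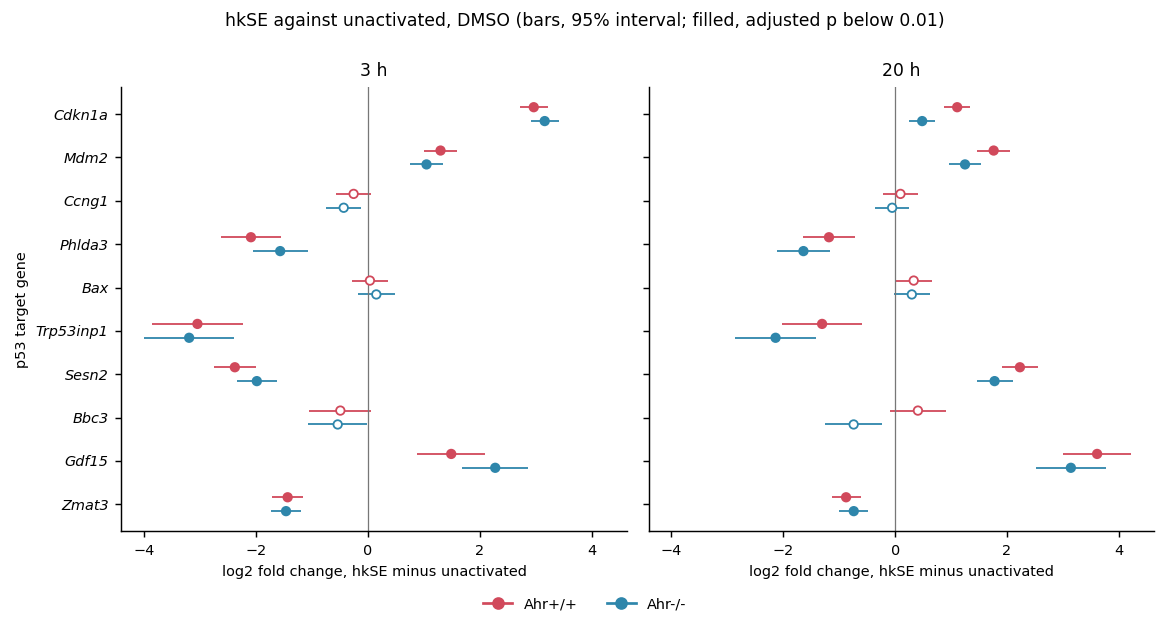
Log2 fold change of each p53 target with hkSE against unactivated cells, both with DMSO, at 3 h (left) and 20 h (right), Ahr+/+ in red and Ahr-/- in blue, with 95% intervals and filled points for an adjusted p below 0.01. Cdkn1a, Mdm2 and Gdf15 lie to the right of 0 at both times, Phlda3, Trp53inp1 and Zmat3 to the left, and Sesn2 changes side, from -2.37 at 3 h to 2.23 at 20 h in Ahr+/+ cells.

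At 20 h in Ahr+/+ cells 29.9% of all genes were called higher with hkSE and 28.7% lower, and the counts of the other lists are given beside these shares. Of the 35 further p53 targets 11 rose and 14 fell, with the largest changes in Ckap2 (-6.89), a mitotic spindle gene, Ephx1 (-5.43), which codes for microsomal epoxide hydrolase and is also on the list of BaP-metabolising enzymes, and the sulfatase gene Sulf2 (-5.05). Of the cell cycle genes 23 of 24 fell and 0 rose, led by Ccna2 (-8.64), Ccnb2 (-7.54) and Plk1 (-7.38), and the list's median was -4.77. Of the ATF4 and CHOP genes 11 of 12 rose and 1 fell, led by Chac1 (6.68), Trib3 (6.31) and Slc7a11 (6.30). Of p53 and its regulators 2 rose and 7 fell, among the latter Chek1 (-3.25), Cdkn2a (-2.78) and Chek2 (-1.70), and Trp53 was at 0.05 ± 0.14. Of the excision repair and bypass genes 3 rose and 12 fell, led by Lig1 (-3.82), Pcna (-1.79) and Rad18 (-1.78). Of the 9 AhR targets and BaP-metabolising enzymes tested 2 rose and 2 fell, among them Tiparp (2.33) and Ugt1a7c (-0.96). At 3 h Trp53 rose by 0.61 ± 0.14 in Ahr+/+ and 0.59 ± 0.14 in Ahr-/- cells, and 17 of 24 and 20 of 24 cell cycle genes were called lower, where 32.3% and 31.8% of all genes were.

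Between 3 h and 20 h of activation 7 of the 10 genes were called in Ahr+/+ DMSO cells, where 59.5% of all genes were, and 5 in Ahr-/- cells, where 56.0% were. Cdkn1a fell by 1.81 ± 0.12 in Ahr+/+ and 2.98 ± 0.12 in Ahr-/- cells, and Sesn2 rose by 5.04 ± 0.20 (32.9-fold) and 3.94 ± 0.18. Trp53inp1 rose by 1.76 ± 0.41 and 1.25 ± 0.39 and Zmat3 by 0.75 ± 0.14 and 0.67 ± 0.13. In Ahr+/+ cells Phlda3 (1.5 ± 0.27), Bbc3 (1.38 ± 0.27) and Gdf15 (1.81 ± 0.29) rose as well. These were in Ahr-/- cells at 0.24 ± 0.25, -0.17 ± 0.27 and -0.42 ± 0.27, and Ccng1 rose by 0.45 ± 0.15. Whether the time courses of the genotypes differed was not tested. In activated Ahr-/- DMSO cells every 3 h library carried an identifier of 1 numbering series and every 20 h library that of another. Time and series therefore cannot be told apart in that comparison. In Ahr-/- cells the Ccng1 and Trp53inp1 calls were lost without replicate 1 or 2 at 3 h or replicate 3 or 4 at 20 h (adjusted p 0.0376 to 0.14 and 0.0226 to 0.0404). With the block all 10 genes passed in Ahr+/+ cells, where 65.3% of all genes did.

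Without activation fewer of all genes were called between the 2 harvest times. None of the 10 genes was called in Ahr+/+ cells (background 6.07%; 3524 genes had an unadjusted p below 0.05), with Phlda3 at 0.59 ± 0.23 and Sesn2 at 0.44 ± 0.16, both called with the block (adjusted p 0.005 and 0.00902; 13.4% of genes). Gdf15 alone was called in Ahr-/- cells (background 6.98%). It held 3.42, 10.6, 7.54 and 9.49 CPM at 3 h and 3.15, 4.51, 2.81 and 2.68 CPM at 20 h (-1.28 ± 0.32, adjusted p = 0.00344). The low library at 3 h overlapped the 20 h group, and the call was lost without replicate 2 or 4 at 3 h or replicate 1, 3 or 4 at 20 h (adjusted p 0.013 to 0.0244). All these 20 h libraries carried identifiers of 1 numbering series, and at 3 h only replicate 1 did, so time and series largely coincide here. With the block Mdm2 was called too (-0.35 ± 0.14 without it, adjusted p 0.0018 with it; 14.4% of genes).

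Between genotypes, genes of the list were called in activated cells at 20 h and in none of the other 3 settings, and at 20 h the genotypes also differed in their library identifiers. All 12 activated Ahr-/- libraries at 20 h carried identifiers of 1 numbering series in the sample descriptions and all 12 activated Ahr+/+ libraries those of another, and the labels do not say what the series stand for. In DMSO cells 4 of the 10 genes were lower in Ahr-/-, where 12.5% of all genes were called and 7.39% were called lower. Cdkn1a was at 240, 266, 272 and 271 CPM against 507, 457, 455 and 409 CPM in Ahr+/+ (-0.80 ± 0.11, adjusted p = 5.06e-07), and Gdf15 at 26.6, 23.9, 34.2 and 27.4 CPM against 85.8, 50.2, 56.8 and 74.2 CPM (-1.25 ± 0.27, adjusted p = 0.000574). Bbc3 was at 6.08, 4.65, 5.67 and 4.47 CPM against 12.5, 10.7, 10.9 and 12.3 CPM (-1.16 ± 0.26, adjusted p = 0.0006). For these 3 genes no Ahr-/- library reached the lowest Ahr+/+ library, an ordering that 11.9% of all genes showed. Mdm2 (-0.56 ± 0.14, adjusted p = 0.00339) overlapped, and its call was lost without replicate 1 or 2 of either genotype (adjusted p 0.0123 to 0.0427). The Mdm2 call was also lost without scaling factors (-0.47 ± 0.14, adjusted p = 0.013) and with replicates 3 and 4 alone standing for Ahr-/- (-0.29 ± 0.11, 0.0458). With replicates 1 and 2 alone the Mdm2 difference was -0.88 ± 0.13 (9.32e-07).

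With the identifier series as a covariate none of the 4 was called, and the number of genes called went from 1811 to 493. Series and genotype coincide in activated cells at 20 h, so the series term was estimated from other groups and carried over. This fit therefore cannot separate genotype from series there. Cdkn1a was then at -0.57 ± 0.15 (adjusted p = 0.0117), Mdm2 at -0.51 ± 0.20, Bbc3 at -0.84 ± 0.34 and Gdf15 at -0.71 ± 0.39. The BaP and I3C comparisons at 20 h lie within 1 series each. In unactivated cells none of the 10 genes differed between genotypes at 3 h (background 1.21%; 1452 genes with an unadjusted p below 0.05) or 20 h (0.702%; 1814 genes). At 3 h of activation none was called either (2.83%; 2778 genes), and the lowest adjusted p were those of Gdf15 (0.98 ± 0.28, 0.0266), Cdkn1a (0.36 ± 0.11, 0.0423) and Sesn2 (0.64 ± 0.20, 0.0465), all higher in Ahr-/-.

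Within the Ahr-/- libraries, the first component of the deviations from group means held 38.7% of the variance, against 11.5% in Ahr+/+ cells. All 16 libraries of replicates 3 and 4 lay on its negative side, and 15 of the 16 of replicates 1 and 2 on the positive side, the exception being 1 library of replicate 1. Mdm2 was higher in replicates 3 and 4 than in 1 and 2 in 8 of 8 Ahr-/- groups without overlap, by 1.16-fold to 1.52-fold. Bax was lower without overlap in 7 of 8 groups (0.60-fold to 0.89-fold over all 8), and Trp53inp1 higher in 7 of 8 with the exception of unactivated cells at 3 h (0.84-fold to 2.82-fold over all 8). Replicates differed in Ahr+/+ cells as well, for Mdm2 and Trp53inp1 mostly the other way. Mdm2 was lower in replicates 3 and 4 without overlap in the 6 activated Ahr+/+ groups (0.80-fold to 0.88-fold) and higher in unactivated cells at 20 h (1.08-fold), and Trp53inp1 was lower without overlap in 5 of 8 (0.64-fold to 0.99-fold over all 8). Bax split without overlap in 3 of 8, lower in 1 and higher in 2. The shares of all genes that split in these ways are not given, so the counts describe the named genes alone. In hkSE and DMSO at 20 h, Trp53inp1 held 6.21 and 5.36 CPM in replicates 1 and 2 and 15.8 and 13.6 CPM in replicates 3 and 4. With replicates 3 and 4 alone standing for Ahr-/-, Trp53inp1 was higher than in Ahr+/+ in unactivated cells at 20 h (1.04 ± 0.20, adjusted p = 0.000227) and Bax lower (-0.40 ± 0.09, adjusted p = 0.000988). With replicates 1 and 2 alone they were at -0.38 ± 0.28 and 0.34 ± 0.13, and neither was called. These pairs were chosen after seeing the data, and the number of all genes called with them is not given. With either pair, none of the 10 genes was called with BaP in Ahr-/- cells.

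In the order of the 16 group means, 5 genes (Cdkn1a, Sesn2, Zmat3, Mdm2 and Gdf15) showed bands whose neighbours did not overlap, and the other 5 genes showed none. The share of all genes with such bands is not given here, so the bands describe these genes and are not particular to them. Expressed per length as FPKM (fragments scaled to exon length and depth), group means ran from 52.9 to 632 for Cdkn1a and from 58.3 to 90.6 for Bax, and those of Zmat3, Phlda3 and Trp53inp1 were at 0.964 to 2.98, 1.12 to 7.97 and 0.516 to 6.94. Group mean CPM of Cdkn1a spanned 12-fold, in 3 bands whose libraries did not overlap between neighbours: unactivated cells and Ahr-/- activated cells at 20 h (188 to 289 CPM), Ahr+/+ activated cells at 20 h (457 to 560 CPM) and all activated cells at 3 h (1605 to 2246 CPM). Sesn2 spanned 32.8-fold in 4 bands, activated at 3 h (3.55 to 5.51 CPM), unactivated (18.3 to 24.8 CPM), activated Ahr-/- at 20 h (84.4 to 92.9 CPM) and activated Ahr+/+ at 20 h (104 to 116 CPM). Zmat3 spanned 3.09-fold in 3 bands, activated at 3 h, activated at 20 h and unactivated. Bands were read from neighbours in the order of means: 1 Ahr-/- library with BaP at 20 h (101 CPM of Sesn2) passed the lowest Ahr+/+ library (98.8 CPM), and unactivated Ahr-/- libraries at 20 h reached down to 20.5 CPM of Zmat3, into the activated 20 h range. Within each band neighbouring groups overlapped, ligands included. Mdm2 spanned 4.26-fold with its 4 unactivated groups, themselves with a gap after the 2 lowest, below all activated ones, and Ahr+/+ cells with BaP at 20 h had its highest mean, 465 CPM. Gdf15 spanned 22.3-fold, with the unactivated groups again below the rest. For Ccng1 (1.99-fold), Bax (1.55-fold), Bbc3 (2.62-fold), Phlda3 (7.14-fold) and Trp53inp1 (13.5-fold) every group overlapped its neighbour in the order of means.

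The tested genes whose group means ran closest to those of 3 targets were listed by Pearson's r of log2 CPM over the 16 groups, which share their libraries and the large activation and time differences, so high values are common. For Cdkn1a they were Zfp319 (0.997), B4galt5 (0.994) and Tmem184b (0.994), for Mdm2 Ddx60 (0.993), Tax1bp1 (0.992) and 1810013L24Rik (0.990), and for Phlda3 Nacc2 (0.981), Ubald1 (0.98) and N4bp3 (0.979). None of these 9 genes is on the lists of p53 targets used here.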

How the data were processed

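The deposited gene counts were made by the authors with HISAT2 2.1.0 on mm10 and htseq-count (HTSeq 0.9.1; reverse-stranded, GENCODE annotation), 1 table per library. The authors also deposited a table of variance-stabilised values on the log2 scale (14549 genes), used for 1 alternative with limma 3.58.1. From the counts, edgeR 4.0.16 (R 4.3.3) fitted 16 group means over all 64 libraries by its quasi-likelihood test, with TMM scaling and filterByExpr (min.count 10), leaving 14537 genes. Benjamini-Hochberg adjustment ran over all of them within each of 26 comparisons, with a threshold of 0.01 on the adjusted p. The test was checked on simulated data. DESeq2 1.42.0 was an alternative. CPM are TMM-scaled, and log2 CPM used a prior count of 2. Rows naming no gene were left out, and 74.95% or more of reads fell on genes.

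The 10 genes, the 6 further lists and the tests were chosen with earlier results of these data known. Named beside the 10 were list genes called with BaP, the 3 of each list with the smallest p with BaP, the 3 called genes with the largest activation change, exposure checks and the 3 nearest genes by r. Replicate numbers run over all treatments of a genotype, and the methods name 4 mice per genotype, so that a number was taken as a mouse, which the labels do not state. Deviations of activated same-numbered libraries at 1 time correlated with r above 0.1 in 24 of 24 Ahr-/- and 17 of 24 Ahr+/+ pairs (lowest r 0.0488). Over all same-numbered pairs, with both times and unactivated cells, r was above 0.1 in 104 of 112 Ahr-/- pairs (lowest -0.402). In Ahr+/+ cells it was so in 54 of 112 pairs (lowest -0.0937, median 0.0962). The check does not show that a number is a mouse. If numbers are not mice, p-values measure only the spread between cultures. If they are mice, the main fit took libraries of the same mouse as independent. Its p-values between genotypes then rest on a spread pooled over all 64 libraries, though only 4 mice stand on each side.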

Additional observations from a re-analysis of the deposited data

Results flagged for a closer look

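Among 160 sets of 4 libraries (10 genes in 16 groups), 6 held 1 library whose gap to the nearest of the other 3 was a larger share of their range than the 95% critical value of Dixon's test, and chance flags about 1 in 20 such sets. Cdkn1a was at 184 CPM in replicate 1 of unactivated Ahr-/- cells at 3 h, below the others at 243 to 252 CPM. In that group Sesn2 was at 26.2 CPM in replicate 2, above 19.8 to 20.5 CPM. Ccng1 was at 104 CPM in replicate 4 of activated Ahr+/+ DMSO cells at 20 h, below 130 to 132 CPM, and this library belongs to the BaP comparison at 20 h. Phlda3 was at 1.08 CPM in replicate 2 of activated Ahr+/+ I3C cells at 3 h, below 1.89 to 2.01 CPM. Trp53inp1 was at 50.8 CPM in replicate 2 of unactivated Ahr+/+ cells at 3 h, above 23.1 to 25.8 CPM. Gdf15 was at 72.7 CPM in replicate 2 of activated Ahr-/- I3C cells at 3 h, above 36.5 to 42.5 CPM.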

How the results depend on the processing

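With BaP in Ahr+/+ cells at 20 h the number of the 10 genes called stayed at 0 under each alternative except the replicate block within genotype and time, which called 1 (Mdm2). The number of all genes called ran from 34 to 271 with the replicate block within genotype and 619 within genotype and time, to 90 and 199 with DESeq2 on all libraries and on the compared groups, to 419 with DESeq2 and the block, to 101 at a threshold of 0.05 and to 21 without a filter on low counts. In the other BaP and I3C comparisons the count of the 10 was 0 under every alternative run, including each library left out. No blocked fit was possible between genotypes, since mice are nested in genotype, or within genotype and time between times. Beside the calls named in the report, the block changed no other count of the 10 by over 1.5 times.

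Between genotypes at 3 h of activation, where 0 were called, DESeq2 on the compared groups called 1, replicates 1 and 2 alone standing for Ahr-/- gave 3, a threshold of 0.05 gave 3, and leaving out 1 library gave 0 to 1. At 20 h of activation the 4 calls became 0 with the identifier series as a covariate and 3 to 4 with 1 library left out. In unactivated cells at 20 h, where 0 were called, Ahr-/- replicates 3 and 4 alone gave 2 and replicates 1 and 2 alone gave 1. These selections of replicates and DESeq2 with the block were chosen after seeing the data, and the numbers of all genes called with the selections are not given. Between times in unactivated Ahr+/+ cells, with 0 called, DESeq2 on the compared groups gave 3, the block 2 and DESeq2 with the block 1. In unactivated Ahr-/- cells, with 1 called, edgeR on the compared groups, limma on variance-stabilised values, the identifier series and replicates 1 and 2 alone gave 0, the block and DESeq2 with the block gave 2, and leaving out 1 library gave 0 to 1. In activated Ahr-/- cells, with 5 called, edgeR and DESeq2 on the compared groups, limma and the identifier series gave 3, and leaving out 1 library gave 3 to 5. Series and time coincide in that last comparison, so the series covariate cannot separate them. The causes were not tested.

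A direction counted as reversed where the sign changed and either fit had an unadjusted p below 0.05. That held for 6 of 6040 gene values, while 5907 kept their direction and side of the threshold. Without scaling factors Bax went to -0.63 and -0.51 with hkSE at 3 h (Ahr+/+ and Ahr-/-) and to -0.037 at 20 h in Ahr+/+. With Ahr-/- replicates 3 and 4 alone Bax was at -0.40 between genotypes and -0.25 between times in unactivated cells, and with replicates 1 and 2 alone Trp53inp1 was at -0.80 between times. Depth limited Phlda3, with as few as 13 counts in a library, more than Cdkn1a, with 2793 or more.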
